A study of Manihot esculenta with 9 samples.

Results

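Genes of wax and cutin synthesis were followed in leaves of cassava (Manihot esculenta) across a wild type and a pair of transgenic lines. The genes were those whose annotated description named a 3-ketoacyl-CoA synthase (26 genes), a glycerol-3-phosphate acyltransferase (12), a fatty acid hydroxylase (9), a long-chain acyl-CoA synthetase (4) or a fatty acid reductase (1), which gave 52 of the 33033 genes in the table. The rule also looked for eceriferum, wax, cutin, cuticle, HOTHEAD, fatty acid elongation and sn-2 acyltransferase wording, which matched 0 descriptions. Each gene carried 1 best Arabidopsis match, and the 52 genes shared 23 such matches. The roles given for the genes are what is known of the Arabidopsis match, not measurements made in cassava.

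The 3 groups had 3 leaf libraries each: WT, the wild type, and HOE1 and HOE8, lines that overexpress MeH1.2, a linker histone of cassava. All were untreated plants raised from stem cuttings in sterile bottles and sampled at 2 months. The sources used here give neither the promoter of the transgene nor the number of plants behind a library, the number of insertion events behind a line or the hour of collection, so the p-values measure only the spread between these libraries. Libraries held 13272047 to 16378389 counted reads. Replicate 1 of HOE8 stood apart from the other libraries of its group, with a median chi-square per gene of 1.83 and 2.03 against 0.766 between those, and 0.647 to 0.843 within WT and HOE1, where sampling noise alone gives 0.455. The gene Manes.08G136300, taken here as the overexpressed linker histone, measured 149 ± 7.9 CPM in WT, with 4617 ± 113 for HOE1 and 3345 ± 261 for HOE8. Both lines were higher, the direction of an overexpressed gene, but its annotated description names no linker histone. The gene overlaps Manes.08G136400, and the use of strand in counting is unknown. Levels are TMM-scaled CPM, given as the mean ± SD of 3 libraries, and levels of different genes are compared only per gene length, as the deposited FPKM. A gene was called where the edgeR quasi-likelihood test across all genes gave a Benjamini-Hochberg adjusted p under 0.05.

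The cuticle is the lipid layer that seals the aerial epidermis. Its polymer, cutin, is built from hydroxylated fatty acids joined to glycerol. The waxes in and on it are very long-chain fatty acids and the alkanes, aldehydes, alcohols and esters made from them. Ketoacyl-CoA synthases (KCS) carry out the chain-lengthening step and set the chain length. The CER1 and CER3 proteins turn the very long acyl chains into alkanes, the main wax of Arabidopsis leaves and stems. On the cutin side, long-chain acyl-CoA synthetases (LACS) activate fatty acids, and glycerol-3-phosphate acyltransferases (GPAT) attach them to glycerol. Suberin, a related polymer of roots and wounds, uses other members of the same families.

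Of the 52 genes, 38 passed the filter on low counts and 14 did not. In HOE1, 20 of the 38 tested genes were lower than in WT and 8 higher, where 32.7% of all 23434 tested genes were called lower and 31.7% higher. By 2-fold or more, 13 fell and 3 rose in HOE1, against 10.8% and 8.5% of all genes. In HOE8, 16 fell and 15 rose, against 38.2% and 33.7% of all genes. By 2-fold or more, 13 fell and 11 rose in HOE8, against 16.6% and 15.3% of all genes. The median log2 fold change of the 38 genes was -0.30 in HOE1 and -0.07 in HOE8, beside 0.00 and -0.05 over all genes. Leaves were sequenced whole, so fewer cells of a type and less RNA per cell cannot be told apart in any of these values. Between the lines, 18 genes were higher in HOE8 than in HOE1 and 10 lower, against 32.7% and 33.8% of all genes. By 2-fold or more, 11 were higher and 6 lower in HOE8 than in HOE1, against 13% and 12.7% of all genes. Without HOE8 replicate 1, 15 members were lower and 15 higher in HOE8 than in WT, and 11 lower and 17 higher in HOE8 than in HOE1. Both transgenic lines were set against the same WT libraries. Each line's values are therefore given side by side, and the lines are told apart only by the test of HOE8 against HOE1.

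The members were also divided by the known role of their match. Beside the counts that follow, 31.7% of all genes were called higher and 32.7% lower in HOE1, and 33.7% and 38.2% in HOE8. Of 9 tested matches to wax genes (KCS1, KCS6, CER1 and CER3), 6 fell and 3 rose in HOE1, with a median log2 fold change of -2.05. In HOE8, 7 of these 9 fell and 2 rose, with a median of -1.03. All 3 tested matches to cutin genes (GPAT6, GPAT8 and LACS2) rose in HOE8, with a median of 1.33, whereas in HOE1 2 fell and 1 was not called, with a median of -0.18. Each of these 3 was also higher in HOE8 than in HOE1, as were 32.7% of all genes. Of 4 matches to suberin genes (KCS2, GPAT5 and FAR4), 3 fell and 1 rose in HOE1, and 2 fell and 2 rose in HOE8. The CER1 match Manes.05G060000 passed the count filter only through the WT libraries, and so had to be lower in both lines. The roles were assigned with the values known, and the counts describe these genes only. KCS10, an epidermal gene of Arabidopsis, was placed in neither the wax nor the cutin group. Of its matches, Manes.16G087600 fell (-0.19 in HOE1, -0.27 in HOE8) and Manes.03G055800 rose (0.47 and 1.02). Summed over the 11 wax-gene matches, the deposited FPKM was 249 to 263 in the WT libraries, 26.6 to 46.4 in HOE1 and 76.5 to 78.0 in HOE8. The 26.6 is that of HOE1 replicate 3, a library with few reads of the KCS1 match, and the other 2 HOE1 libraries had 44.4 and 46.4. Summed over the 5 cutin-gene matches it was 71.1 to 76.9 in WT, 57.6 to 62.5 in HOE1 and 115 to 123 in HOE8. FPKM is scaled to the library total. The TMM factors, which ran from 0.9725 to 1.048, are not part of it.

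**Figure D1:**
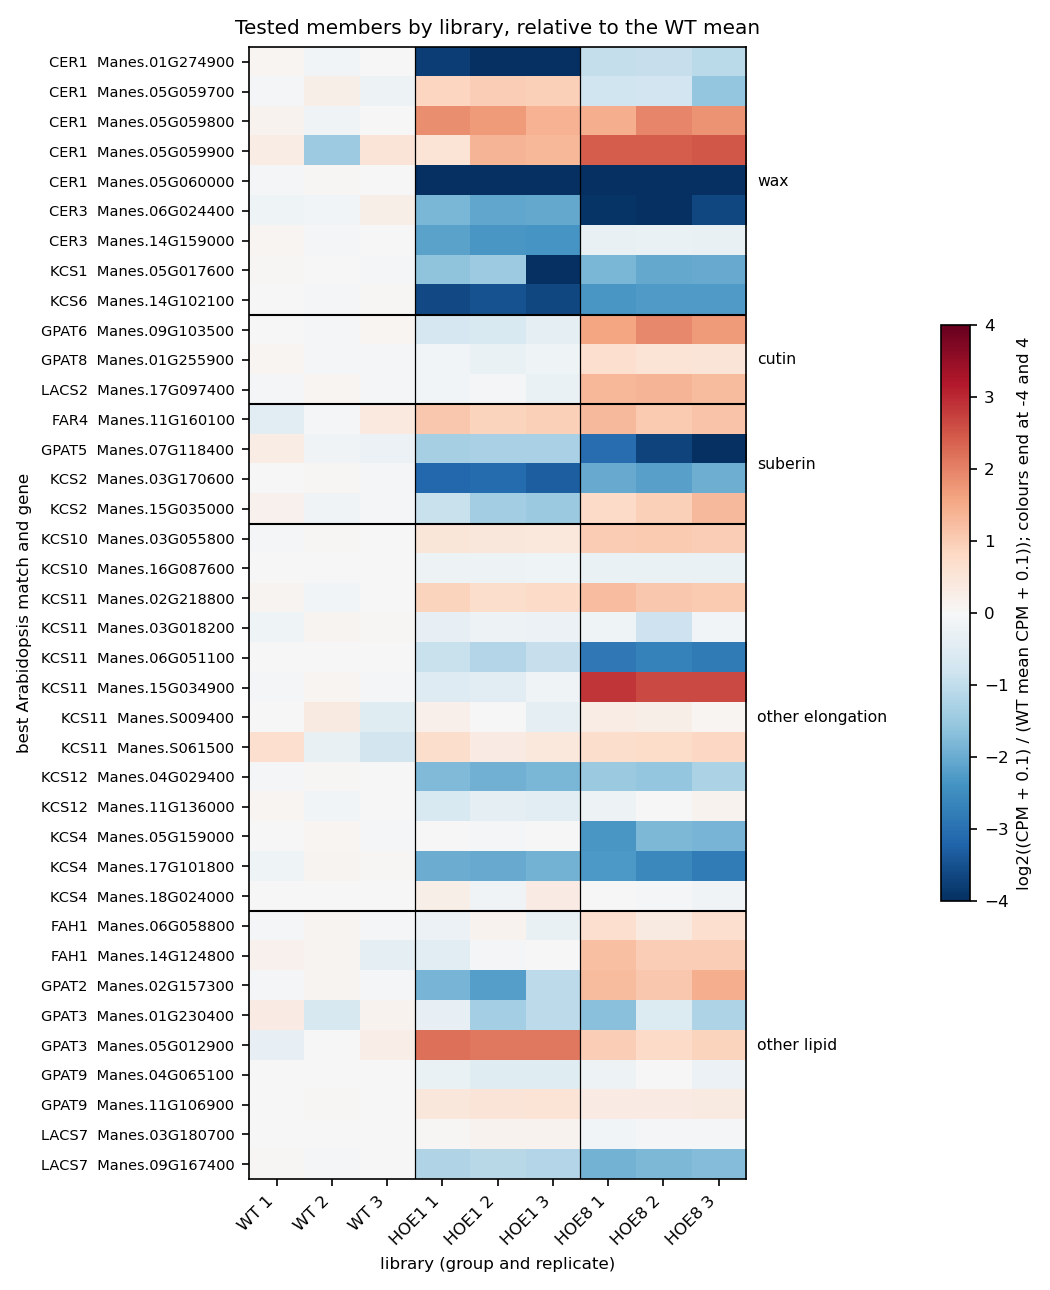
Each row is 1 of the 38 tested genes, grouped by the known role of its Arabidopsis match, and each column is a library. Colour is log2 of CPM plus 0.1 over the WT mean plus 0.1, with colours ending at -4 and 4. Of the 9 wax rows, 6 are blue (lower than WT) in HOE1 and 7 in HOE8, and the 3 cutin rows are red (higher than WT) in HOE8. The blue wax rows include the CER1 match Manes.05G060000, which passed the count filter only through WT.

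**Figure D2:**
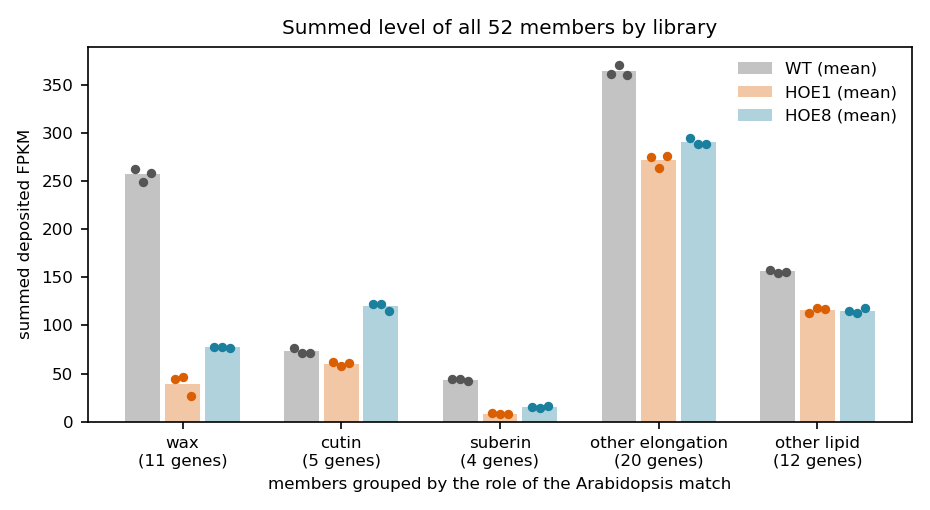
Bars are group means and points are libraries of the summed deposited FPKM of all 52 genes, by role. The wax sum is lower in both lines than in WT (26.6 in HOE1 replicate 3, 44.4 and 46.4 in the others of that line, 76.5 to 78.0 in HOE8), and the cutin sum is highest in HOE8 (115 to 123).

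Fatty acid elongation held 26 KCS genes, of which 17 were tested. In HOE1, 10 fell and 2 rose, against 32.7% and 31.7% of all genes. In HOE8, 8 fell and 4 rose, against 38.2% and 33.7% of all genes. The largest fall in HOE1 was that of Manes.14G102100 (chromosome 14, 8243869 to 8245712), the match of KCS6, also called CER6, the condensing enzyme on which Arabidopsis stem and leaf wax depends. It measured 216, 202.4 and 221 CPM in the WT libraries, 17.3, 18.8 and 17.1 in those of HOE1 and 42.4, 44.3 and 44.5 in those of HOE8. The groups did not overlap, with WT highest and HOE1 lowest. The log2 fold change was -3.59 ± 0.06, adjusted p = 5e-11 in HOE1 and -2.28 ± 0.06, adjusted p = 5.6e-11 in HOE8, and HOE8 lay above HOE1 by 1.3 ± 0.06, adjusted p = 9.2e-09.

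Manes.05G017600 (chromosome 5, 1283319 to 1285164), the match of the wax condensing enzyme KCS1, measured 106, 104 and 98.4 CPM in the WT libraries, 33.8, 37.5 and 3.04 in those of HOE1 and 28.5, 25 and 25 in those of HOE8. Both lines lay below every WT library. Replicate 3 of HOE1 held 47 reads where replicates 1 and 2 held 478 and 572, so it decides the spread of this gene. It changed on the log2 scale by -2.05 ± 0.54, adjusted p = 0.0066 in HOE1 and -1.97 ± 0.54, adjusted p = 0.007 in HOE8. Without that library it was -1.52 ± 0.08 (adjusted p = 3.6e-07) in HOE1 and -1.97 ± 0.08 (adjusted p = 6.5e-09) in HOE8. The difference between the lines turned from 0.08 ± 0.55, adjusted p = 0.9, to -0.44 ± 0.08, adjusted p = 0.0011, when that library was left out. A drop of 5-fold or more in 1 library below both others of its group was found in 18 to 41 genes per library, among 15287 to 16354 genes with a group mean of at least 100 reads.

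KCS2 lengthens chains for suberin in Arabidopsis, and its place in the suberin group here does not exclude a part in leaf wax. Its match Manes.03G170600 (chromosome 3, 26206289 to 26208912) measured 78.9, 80.7 and 76.6 CPM in the WT libraries, 8.9, 9.18 and 7.95 in those of HOE1 and 19.4, 17.5 and 20.5 in those of HOE8. WT was highest and HOE1 lowest in every library, with log2 fold changes of -3.18 ± 0.08, adjusted p = 2.5e-10 in HOE1 and -2.04 ± 0.07, adjusted p = 8e-10 in HOE8. The second KCS2 match, Manes.15G035000, measured 2.56 ± 0.29 CPM in WT, fell to 1.03 ± 0.27 in HOE1 and rose to 5.29 ± 0.98 in HOE8 (HOE8 against HOE1 2.36 ± 0.22, adjusted p = 3.4e-06). It lies 21162 bases from Manes.15G034900, with 0 annotated genes between them.

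Manes.15G034900 (chromosome 15, 2618758 to 2620972), 1 of 9 matches of KCS11, had the largest rise among the elongation genes in HOE8. It measured 15.5, 16.9 and 15.5 CPM in the WT libraries, 11.2, 11.9 and 14.4 in those of HOE1 and 117, 100.9 and 100.7 in those of HOE8. The HOE8 libraries lay above all others, and those of HOE1 slightly below WT. Its change in log2 was 2.73 ± 0.10, adjusted p = 7.5e-10 in HOE8 and -0.35 ± 0.10, adjusted p = 0.011 in HOE1, and the lines differed by 3.09 ± 0.10, adjusted p = 5.4e-10. Another KCS11 match, Manes.06G051100 (chromosome 6, 14434782 to 14437790), moved the other way and had the largest fall of this group in HOE8. It measured 166, 168 and 167 CPM in the WT libraries, 90.4, 73.6 and 87.6 in those of HOE1 and 22.7, 25.4 and 23.3 in those of HOE8, in the order WT, HOE1, HOE8 with no overlap. Its log2 fold change was -0.99 ± 0.08, adjusted p = 8.5e-07 in HOE1 and -2.81 ± 0.08, adjusted p = 1.5e-10 in HOE8. In WT, Manes.06G051100 held 72.8 FPKM and Manes.15G034900 9.49. In HOE8 these levels were 9.69 and 58.9, so the order of the pair was turned around. Of the other KCS11 matches, Manes.02G218800 rose in both lines (0.82 and 1.15), 3 were not called in either line, and 3 were not tested.

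KCS10 is FIDDLEHEAD, an epidermal enzyme that keeps Arabidopsis organs from fusing. Its match Manes.16G087600 (chromosome 16, 24476506 to 24478924) had the highest FPKM of all 52 genes, at 179.8 in WT, 149 in HOE1 and 139 in HOE8. It measured 299, 307 and 297 CPM in the WT libraries, 263, 263 and 266 in those of HOE1 and 249, 250.2 and 249.7 in those of HOE8. Both lines were slightly below WT, with log2 fold changes of -0.19 ± 0.04, adjusted p = 0.0019 in HOE1 and -0.27 ± 0.04, adjusted p = 0.00012 in HOE8. A second KCS10 match, Manes.03G055800, rose from 40.8 ± 1.8 CPM in WT to 56.5 ± 1.2 for HOE1 and 82.8 ± 2.5 for HOE8. Manes.16G087600 made up 30.9% of the summed FPKM of the KCS genes in WT, 49.8% in HOE1 and 41% in HOE8. The KCS6 match went from 20.7% in WT to 6.8% in HOE8. Its FPKM was lowest in HOE1, at 9.45, beside 23.1 in HOE8 and 120.4 in WT.

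The remaining tested KCS genes match KCS4 and KCS12, for which no cuticle role is given here. Manes.17G101800, a KCS4 match, fell from 9.79 ± 0.97 CPM in WT to 2.45 ± 0.12 for HOE1 and 1.59 ± 0.29 for HOE8. Manes.05G159000, another, measured 38.6 ± 2.2 CPM in WT and 37.6 ± 0.80 in HOE1 (adjusted p = 0.77) and fell to 9.76 ± 1.8 in HOE8, a difference between the lines of -1.94 ± 0.11, adjusted p = 6.3e-08. The third, Manes.18G024000, was called in neither line (0.16 and -0.06). The KCS12 match Manes.04G029400 fell from 38.6 ± 1.2 CPM in WT to 10.7 ± 0.64 for HOE1 and 14.4 ± 1.6 for HOE8. Manes.11G136000, the other KCS12 match, fell in HOE1 by 0.46 on the log2 scale and was not called in HOE8 (-0.01, adjusted p = 0.93).

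**Figure D3:**
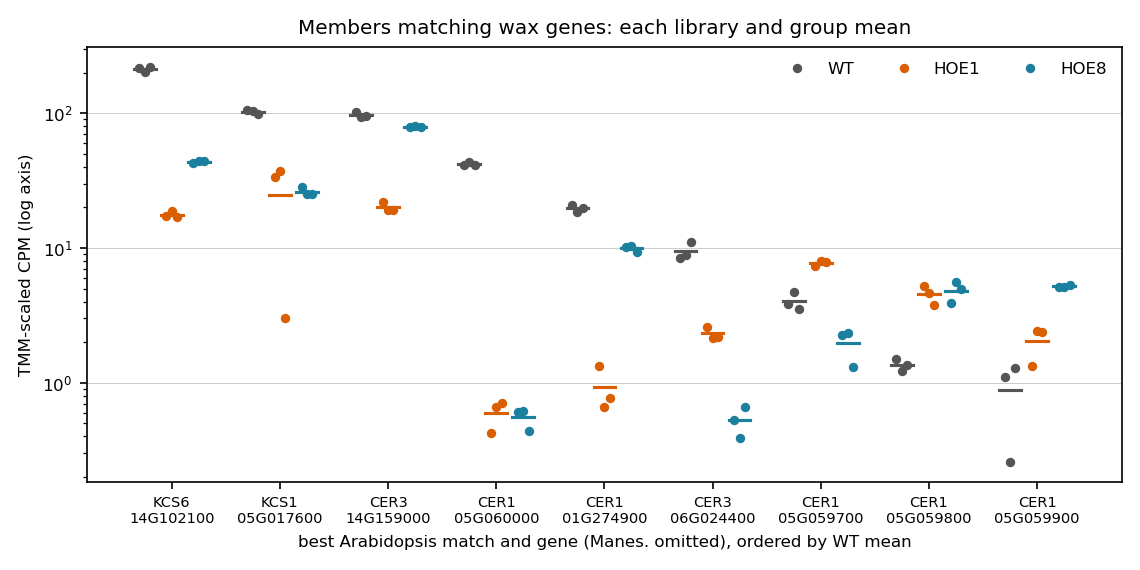
Points are the TMM-scaled CPM of each library, on a log axis, for the 9 tested matches of wax genes, and lines are group means. WT is highest for the 6 genes on the left, which include the CER1 match Manes.05G060000 that passed the count filter only through WT. For KCS1, replicate 3 of HOE1 lies far below the other HOE1 libraries.

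All 9 members of the fatty acid hydroxylase family were tested. They hold 5 matches of CER1, 2 of CER3 and 2 of FAH1, a hydroxylase of sphingolipids in Arabidopsis that has no part in alkane synthesis. The CER1 match with the highest FPKM in WT, Manes.05G060000 (chromosome 5, 4604099 to 4608135), fell to under 1 CPM in both lines. It measured 41.2, 43.5 and 41.6 CPM in the WT libraries, 0.424, 0.656 and 0.711 in those of HOE1 and 0.605, 0.62 and 0.44 in those of HOE8, which rests on 600, 672 and 708 reads for WT, 6, 10 and 11 for HOE1 and 8, 8 and 6 for HOE8. The WT libraries stood far above the 6 transgenic ones, with log2 fold changes of -6.11 ± 0.14, adjusted p = 1.4e-10 in HOE1 and -6.23 ± 0.14, adjusted p = 2.5e-11 in HOE8. This is the largest change among the 38 tested genes in each line. The gene passed the count filter only through WT, so a lower level in both lines was set by the filter. Between the lines the log2 difference was -0.12 ± 0.25, adjusted p = 0.81.

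Manes.05G060000 is the last of 4 neighbouring CER1 matches on chromosome 5 that have 0 other annotated genes between them and lie within 62127 bases, counted from the end of the first gene to the start of the last. The other 3 had low levels in WT and behaved differently. Manes.05G059800 measured 1.51, 1.23 and 1.35 CPM in the WT libraries, 5.23, 4.66 and 3.75 in those of HOE1 and 3.93, 5.58 and 4.99 in those of HOE8, above WT in both lines (1.73 ± 0.20, adjusted p = 2.4e-05 in HOE1 and 1.82 ± 0.20, adjusted p = 1.1e-05 in HOE8). Manes.05G059900, which lies 4945 bases from Manes.05G060000, measured 1.1, 0.259 and 1.29 CPM in the WT libraries, 1.34, 2.43 and 2.39 in those of HOE1 and 5.14, 5.12 and 5.35 in those of HOE8, with HOE8 highest. Its log2 fold change was 2.54 ± 0.35, adjusted p = 5.9e-05 in HOE8 and 1.21 ± 0.39, adjusted p = 0.02 in HOE1, and WT replicate 2 held only 4 reads. Manes.05G059700 rose from 4.03 ± 0.62 CPM to 7.72 ± 0.34 in HOE1 and fell to 1.97 ± 0.57 in HOE8, and the lines differed by -1.97 ± 0.20, adjusted p = 5.2e-06. As neighbouring copies with the same match, these genes may have shared reads, which the deposited counts cannot show.

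**Figure D4:**
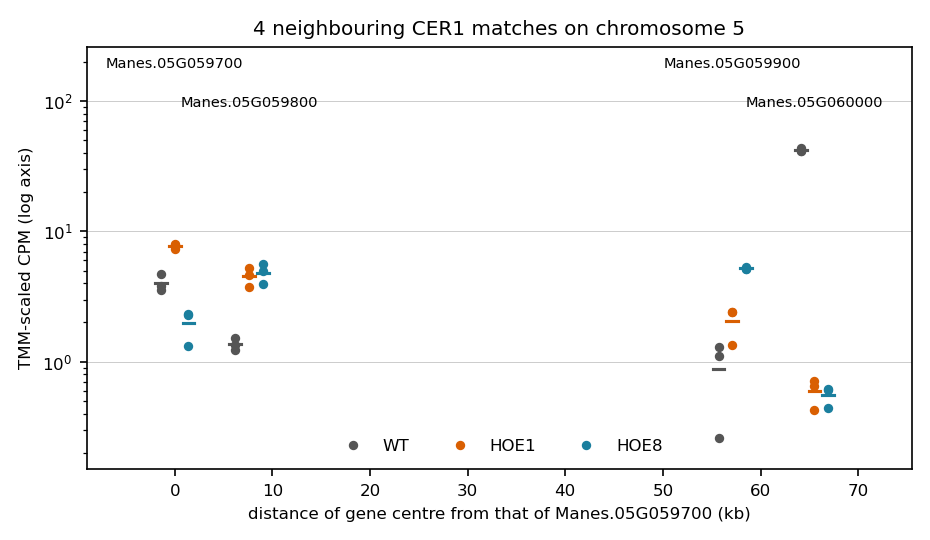
The 4 neighbouring CER1 matches on chromosome 5 are placed by the distance of each gene's centre from that of the first, with TMM-scaled CPM of each library on a log axis and group means as lines. The gene on the right, which passed the count filter only through WT, is high in WT and under 1 CPM in both lines. Its neighbour has more CPM in HOE8 than in WT.

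The fifth CER1 match, Manes.01G274900 (chromosome 1, 34919999 to 34924701), measured 21, 18.4 and 19.7 CPM in the WT libraries, 1.34, 0.656 and 0.776 in those of HOE1 and 10.2, 10.3 and 9.32 in those of HOE8. HOE1 was lowest and HOE8 lay between it and WT. The log2 fold change was -4.41 ± 0.18, adjusted p = 6.6e-09 in HOE1 and -0.99 ± 0.13, adjusted p = 4.4e-05 in HOE8, with a difference of 3.43 ± 0.19, adjusted p = 3.7e-08 between the lines. It overlaps Manes.01G275000, whose reads summed to 22 in WT, 1 in HOE1 and 5 in HOE8. CER3 works with CER1, and its match Manes.14G159000 (chromosome 14, 19011413 to 19017644) had the highest FPKM of this family in WT. It measured 102.1, 94.5 and 96 CPM in the WT libraries, 22, 19.3 and 19.1 in those of HOE1 and 78.7, 80.8 and 79.1 in those of HOE8. HOE1 lay far below both other groups, and HOE8 lay slightly below WT. It changed on the log2 scale by -2.28 ± 0.07, adjusted p = 6.5e-10 in HOE1 and -0.29 ± 0.06, adjusted p = 0.0013 in HOE8, and the lines differed by 1.98 ± 0.07, adjusted p = 6.5e-10. The second CER3 match, Manes.06G024400, had the opposite order of the lines. It fell from 9.48 ± 1.5 CPM in WT to 2.33 ± 0.25 in HOE1 and 0.526 ± 0.14 in HOE8 (HOE8 against HOE1 -2.12 ± 0.26, adjusted p = 3.1e-05). Both FAH1 matches rose in HOE8, by 0.58 (Manes.06G058800) and 1.07 (Manes.14G124800) on the log2 scale, and neither was called in HOE1.

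Among the acyl-activating enzymes, LACS2 supplies cutin precursors in the Arabidopsis epidermis. Its match Manes.17G097400 (chromosome 17, 23882310 to 23887648) measured 15.2, 16.6 and 15.3 CPM in the WT libraries, 14.7, 15.1 and 13 in those of HOE1 and 39.8, 40.5 and 38 in those of HOE8. HOE8 was highest in every library, with a log2 fold change of 1.33 ± 0.08, adjusted p = 4e-08 against WT and 1.46 ± 0.08, adjusted p = 2.7e-08 against HOE1. In HOE1 the change against WT was -0.14 ± 0.08, adjusted p = 0.16. LACS7 is an enzyme of the peroxisome that serves the breakdown of fatty acids rather than the cuticle. Its match Manes.09G167400 (chromosome 9, 27910974 to 27918319) measured 174, 163 and 172 CPM in the WT libraries, 73.9, 77.8 and 75.5 in those of HOE1 and 45.6, 48.5 and 50.9 in those of HOE8, in the order WT, HOE1, HOE8, with log2 fold changes of -1.16 ± 0.06, adjusted p = 2.5e-08 in HOE1 and -1.81 ± 0.06, adjusted p = 2.9e-10 in HOE8. The LACS7 match Manes.03G180700 was called in neither line (0.11 and -0.08).

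Of 12 GPAT genes, 8 were tested. In HOE1 5 fell and 2 rose, against 32.7% and 31.7% of all genes. In HOE8 2 fell and 5 rose, against 38.2% and 33.7% of all genes. The genes that fell in HOE8 include the GPAT3 match Manes.01G230400, which passed the count filter only through WT. GPAT8 acts in leaf cutin in Arabidopsis. Its match Manes.01G255900 (chromosome 1, 33066085 to 33069493), the GPAT gene with the highest FPKM, measured 108, 98.1 and 98.8 CPM in the WT libraries, 93.9, 84.7 and 90.3 in those of HOE1 and 160.2, 149 and 145 in those of HOE8. HOE8 lay above all other libraries. Its log2 fold change was 0.58 ± 0.06, adjusted p = 8.4e-06 in HOE8 and -0.18 ± 0.06, adjusted p = 0.028 in HOE1. The HOE1 call ended when WT replicate 1, HOE1 replicate 2 or HOE1 replicate 3 was left out (adjusted p = 0.11, 0.11 and 0.063). The lines differed by 0.76 ± 0.06, adjusted p = 1.2e-06.

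GPAT6 acts in flower cutin in Arabidopsis. Its match Manes.09G103500 (chromosome 9, 22369231 to 22371551) measured 10.2, 9.83 and 10.9 CPM in the WT libraries, 6.43, 6.69 and 7.95 in those of HOE1 and 30.9, 39.6 and 33.7 in those of HOE8. It was lowest in HOE1 and highest in HOE8, with log2 fold changes of -0.55 ± 0.12, adjusted p = 0.0023 in HOE1 and 1.75 ± 0.11, adjusted p = 1e-07 in HOE8, and the lines differed by 2.30 ± 0.12, adjusted p = 2.1e-08. A second GPAT6 match, Manes.08G089900, did not pass the count filter and had 1, 0 and 0 reads in the WT libraries, 1, 0 and 1 in those of HOE1 and 8, 9 and 12 in those of HOE8.

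GPAT5 makes suberin in Arabidopsis roots and seed coats. Its match Manes.07G118400 (chromosome 7, 24641322 to 24643231) had 58, 45 and 46 reads in the WT libraries, 17, 19 and 19 in those of HOE1 and 4, 2 and 0 in those of HOE8, where 3 reads are worth 0.22 to 0.233 CPM. In CPM it went from 3.2 ± 0.69 in WT to 1.23 ± 0.023 for HOE1 and 0.153 ± 0.15 for HOE8. On the log2 scale it fell against WT in HOE1 (-1.37 ± 0.28, adjusted p = 0.0014) and HOE8 (-4.32 ± 0.44, adjusted p = 4.8e-06). The FAR4 match Manes.11G160100 (chromosome 11, 26875993 to 26879302), a reductase that makes the fatty alcohols of suberin in Arabidopsis, rose in both lines. It measured 1.85, 2.52 and 3.4 CPM in the WT libraries, 5.58, 4.85 and 5.11 in those of HOE1 and 6.58, 5.51 and 5.79 in those of HOE8, with log2 fold changes of 0.98 ± 0.19, adjusted p = 0.0011 in HOE1 and 1.18 ± 0.19, adjusted p = 0.00021 in HOE8.

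The other GPAT genes match enzymes without a cuticle role given here. The GPAT2 match Manes.02G157300 (chromosome 2, 11845869 to 11849125) measured 7.27, 8.28 and 7.45 CPM in the WT libraries, 2.05, 1.57 and 3.62 in those of HOE1 and 18.7, 16.1 and 21.3 in those of HOE8, lowest in HOE1 and highest in HOE8. Its change in log2 was -1.66 ± 0.24, adjusted p = 0.00011 in HOE1 and 1.29 ± 0.20, adjusted p = 0.00012 in HOE8, and 2.94 ± 0.23, adjusted p = 6.2e-07 between the lines. The GPAT3 match Manes.05G012900 (chromosome 5, 869203 to 871055) had the largest rise of this group in HOE1. It measured 1.1, 1.42 and 1.7 CPM in the WT libraries, 6.78, 6.36 and 6.4 in those of HOE1 and 2.87, 2.48 and 2.71 in those of HOE8, with log2 fold changes of 2.19 ± 0.16, adjusted p = 6.6e-07 in HOE1 and 0.92 ± 0.19, adjusted p = 0.00096 in HOE8. The second GPAT3 match, Manes.01G230400, which passed the filter only through WT, was not called in HOE1 (-0.95, adjusted p = 0.064) and fell by 1.20 on the log2 scale in HOE8. GPAT9 starts membrane and storage lipid synthesis. Of its matches, Manes.11G106900 rose in both lines (log2 fold change 0.50 in HOE1 and 0.34 in HOE8) and Manes.04G065100 fell in HOE1 (-0.40) and was not called in HOE8 (-0.15).

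Of the 14 genes that were not tested, 3 had 0 reads in all 9 libraries (the KCS5 match Manes.06G139700, the KCS11 match Manes.02G219000 and the GPAT1 match Manes.02G084800). The other 11 had 4 to 73 reads over all libraries and match KCS1, KCS7, KCS10, KCS11, KCS19, GPAT1, GPAT6 and LACS7. Of the wax-gene matches among them, the KCS1 match Manes.01G241000 had 64 reads.

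The rest of the pathway was taken from a list of Arabidopsis genes of wax and cutin synthesis, export and control, found by best match, which gave 70 further cassava genes, of which 52 were tested. In HOE1, 27 fell and 12 rose, with a median log2 fold change of -0.34. In HOE8, 15 fell and 24 rose, with a median of 0.26. Between the lines, 32 were higher in HOE8 than in HOE1 and 5 lower. Of the 52, 5 passed the count filter only through HOE8 and 1 only through WT. Over all genes, 31.7% were called higher and 32.7% lower in HOE1, 33.7% and 38.2% in HOE8, and 32.7% and 33.8% in HOE8 against HOE1. The same shares apply to the counts for parts of this list below.

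Among the partners of the KCS enzymes, 6 of 8 tested genes fell in HOE1 and 0 rose, against 32.7% and 31.7% of all genes. In HOE8, 2 fell, 1 rose and 5 were not called, where 38.2% of all genes fell and 33.7% rose. The tested genes include the KCR1 match Manes.13G018800, which passed the count filter only through HOE8. A higher level of that gene in HOE8 was set by the filter. The match of PAS2, the dehydratase of the elongation cycle, Manes.13G099500, fell from 37.7 ± 0.81 CPM in WT to 15.5 ± 1.3 for HOE1 and 25 ± 3.4 for HOE8. The match of CER2, a protein that lets KCS6 make the longest chains, Manes.02G144500, fell from 177 ± 0.76 CPM in WT to 100.4 ± 5.3 for HOE1 and 69.5 ± 4.3 for HOE8. Both CER10 matches, for the enoyl reductase of the cycle, fell in HOE1 (-0.73 and -1.27 for Manes.07G115800 and Manes.10G030900) and were not called in HOE8 (0.04 and 0.10).

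Of 30 wax genes on this list, 20 were tested. In HOE1, 2 rose and 12 fell, with a median log2 fold change of -0.70. In HOE8, 5 rose, 7 fell and 8 were not called, with a median of 0.05, and 9 were higher and 3 lower in HOE8 than in HOE1. These include 4 matches of CER7 and CER9, listed for turnover control rather than synthesis. Of these 4, 2 rose and 0 fell in HOE1, and 3 rose and 1 fell in HOE8. The CER4 match Manes.11G160200 passed the filter only through WT and the KCR1 match Manes.13G018800 only through HOE8. Before elongation, 2 of 3 tested FATB matches fell in both lines. The FATB match Manes.S047300, a thioesterase that releases saturated fatty acids from the plastid, fell from 59.5 ± 3.0 CPM in WT to 18 ± 2.0 for HOE1 and 19.4 ± 1.3 for HOE8. The LACS1 match Manes.05G012700, for the wax-linked acyl activator also called CER8, fell from 46.6 ± 2.3 CPM to 12.5 ± 1.5 and 15.9 ± 1.3. A second LACS1 match, Manes.01G230600, fell in HOE1 (-0.67) and rose in HOE8 (1.44). Each LACS1 match lies beside a GPAT3 match with 1 gene between them. The CER4 match Manes.11G160200, for the reductase that makes wax alcohols, had 60, 63 and 59 reads in the WT libraries, 1, 2 and 1 in those of HOE1 and 3, 3 and 2 in those of HOE8. It lies 10956 bases from the FAR4 match Manes.11G160100, which rose in both lines. A second tested CER4 match, Manes.04G005400, was over the filter's minimum in 3 libraries of WT, 0 of HOE1 and 3 of HOE8. In the role that holds both CER4 matches, 3 genes were tested. Of these, 2 fell and 1 was not called in HOE1, and 1 fell and 2 were not called in HOE8. The CER7 matches, for an exosome subunit that acts on wax genes in Arabidopsis, differed: Manes.01G181600 rose in HOE1 (0.73) and HOE8 (0.32), and Manes.02G141300 fell in HOE8 (-0.86) and was not called in HOE1 (0.11).

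Of 11 export genes, all tested, 7 fell and 3 rose in HOE1, and 7 fell and 3 rose in HOE8. The match of LTPG1, a lipid-transfer protein on the cell surface that carries wax, Manes.12G010600, measured 58.4, 61.5 and 59.5 CPM in the WT libraries, 6.5, 6.62 and 6.98 in those of HOE1 and 19.5, 20.4 and 21.2 in those of HOE8. WT was highest and HOE1 lowest, with log2 fold changes of -3.16 ± 0.07, adjusted p = 1.3e-10 in HOE1 and -1.55 ± 0.06, adjusted p = 1.7e-09 in HOE8. A second LTPG1 match, Manes.13G011400, fell to 17.7 ± 1.1 CPM in HOE1 and rose to 71 ± 12 in HOE8, from 50.3 ± 2.0 in WT. The match of ABCG11, a transporter of wax and cutin, with the largest change in HOE8 was Manes.10G105100, which rose from 0.262 ± 0.19 to 2.38 ± 0.41 CPM and passed the count filter only through HOE8. It measured 0.599 ± 0.091 CPM in HOE1, where the call (adjusted p = 0.04) ended with DESeq2 and other settings (adjusted p = 0.051 to 0.13). The ABCG11 match with the highest FPKM in WT, Manes.12G131400, fell in both lines (-1.04 and -0.75). It overlaps another gene, whose reads summed to 7 in WT, 3 in HOE1 and 4 in HOE8.

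Of 12 cutin genes outside the members, 11 were tested. Of these, 3 matches of CUS2 passed the count filter only through the HOE8 libraries and so had to be higher there. Summed over the 3 libraries of a group, these were Manes.08G142600 (4 reads for WT, 21 for HOE1, 70 for HOE8), Manes.09G145700 (27 for WT, 21 for HOE1, 327 for HOE8) and Manes.09G145800 (5 for WT, 12 for HOE1, 49 for HOE8). The gene that was not tested, the CUS2 match Manes.09G146000, had 14 reads for WT, 2 for HOE1 and 6 for HOE8. The other 8 rose in HOE8 against WT, with log2 fold changes from 0.52 (Manes.05G033400) to 4.18 (Manes.04G139700), and were higher in HOE8 than in HOE1. In HOE1 against WT, 3 of these 8 rose and 5 fell. HOTHEAD is an oxidoreductase that oxidises hydroxy fatty acids for cutin. Its match Manes.04G139700 measured 3.22, 2.33 and 3.11 CPM in the WT libraries, 9.46, 9.31 and 9.96 in those of HOE1 and 47.3, 52.9 and 57.3 in those of HOE8, in the order WT, HOE1, HOE8. The log2 fold change was 4.18 ± 0.12, adjusted p = 1.4e-10 in HOE8 and 1.73 ± 0.13, adjusted p = 6.8e-07 in HOE1. The other HOTHEAD match, Manes.11G026400, measured 14.1 ± 0.48 CPM in WT, with 2.06 ± 0.60 for HOE1 and 20.7 ± 0.82 for HOE8, with a log2 difference between the lines of 3.32 ± 0.15, adjusted p = 8.5e-09.

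The match of DCR, an acyltransferase of cutin, Manes.06G151000, measured 89, 88.3 and 85 CPM in the WT libraries, 75.5, 78.4 and 75.8 in those of HOE1 and 218, 213 and 227 in those of HOE8. HOE8 stood above both other groups (1.33 ± 0.05, adjusted p = 9.5e-10 against WT). Both matches of CYP86A8, which adds the end hydroxyl group of cutin monomers, fell in HOE1 and rose in HOE8. Manes.05G033400 went from 10.4 ± 0.53 CPM to 4.22 ± 0.43 and 15 ± 1.1, and Manes.01G059800 from 1.77 ± 0.32 to 0.918 ± 0.29 and 5.82 ± 0.97. The HOE1 call of Manes.01G059800 (adjusted p = 0.012) ended without HOE1 replicate 2, where the log2 fold change was -0.70 (adjusted p = 0.05). LTL1 and CUS2 belong to the GDSL lipase family, which holds the enzyme that joins cutin monomers. The LTL1 match Manes.08G142400 rose from 33.8 ± 2.0 to 135 ± 4.1 CPM in HOE8, next to the CUS2 match Manes.08G142500, which rose from 1.79 ± 0.37 to 11.6 ± 1.2. The 5 tested CUS2 matches lie in 2 clusters of neighbours that may have shared reads.

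**Figure D5:**
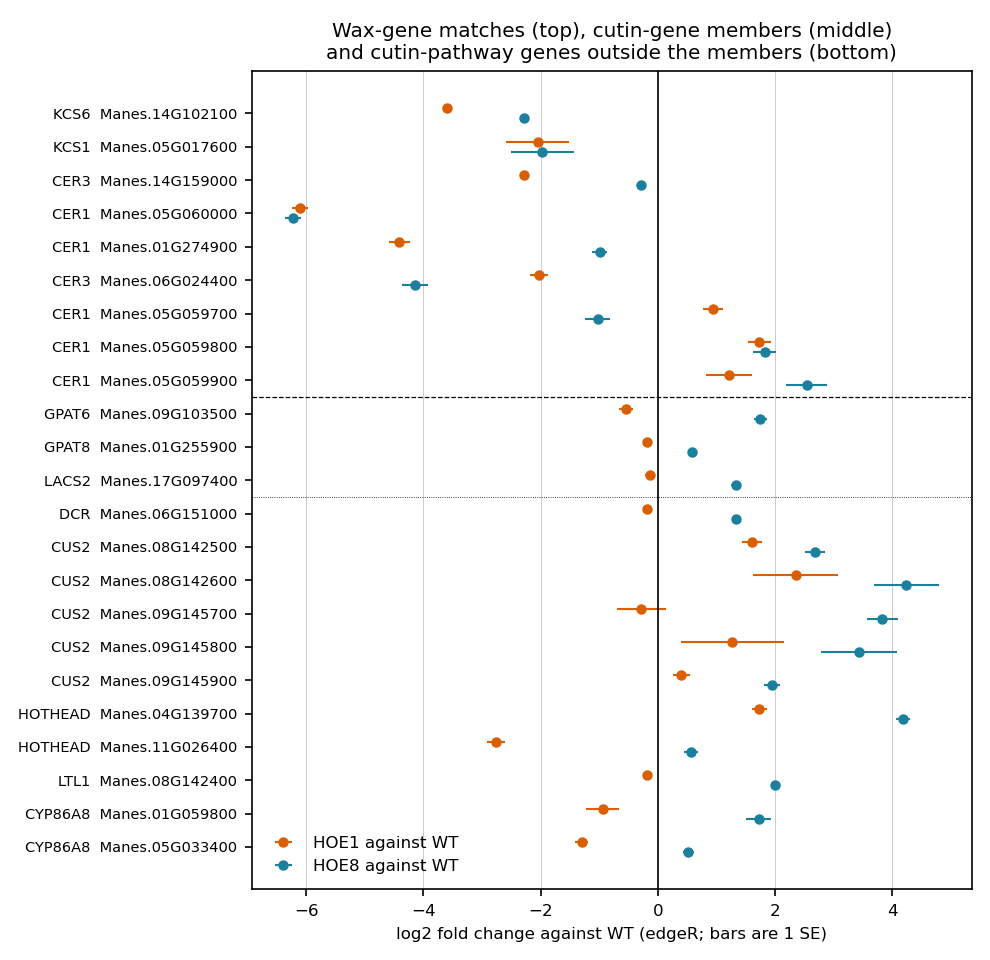
Points are log2 fold changes against WT and bars 1 SE, for the 9 tested wax-gene matches (top), the 3 tested cutin-gene members (middle) and the 11 tested cutin genes outside the members (bottom). In HOE8 the 14 cutin genes lie to the right of 0, of which 3 CUS2 matches passed the count filter only through HOE8. To the left lie 7 of the 9 wax-gene matches, among them the CER1 match Manes.05G060000, which passed only through WT. The 20 tested wax genes outside the members are not drawn, and of these 5 rose and 7 fell in HOE8.

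Most tested markers of the epidermis, the tissue that makes the cuticle, were higher in HOE8 than in WT, as were most of the mesophyll and xylem. Of 9 tested epidermal matches of 12, 8 rose in HOE8 against WT, 1 was not called and 0 fell, with a median log2 fold change of 0.77. Over all genes, 33.7% were called higher and 38.2% lower. All 9 were higher in HOE8 than in HOE1, against 32.7% of all genes. In HOE1 3 rose and 2 fell, against 31.7% and 32.7% of all genes, with a median of 0.18. The summed FPKM of the 12 matches was 64.4 to 67.9 in WT, 71.8 to 73.9 in HOE1 and 238 to 255 in HOE8. In HOE8 the largest part of that sum was the PDF1 match Manes.01G128300, a protein of the young epidermis, which rose from 6.0 ± 0.67 CPM in WT to 14.7 ± 0.14 in HOE1 and 214 ± 2.7 in HOE8. Among regulators of epidermal identity, the HDG2 matches Manes.13G071000 and Manes.12G075600 rose in HOE8 by 0.94 and 0.74 on the log2 scale, and the PDF2 match Manes.16G011100 by 0.77. A second PDF2 match, Manes.15G074900, had 0 reads. The part of this shift in the cutin and wax values was not tested.

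Other markers and the clock differed as well. Over all genes, 33.7% were called higher and 38.2% lower in HOE8 against WT, and 31.7% and 32.7% in HOE1. Of 11 tested mesophyll matches of 12, 9 rose and 1 fell in HOE8, and 7 rose and 2 fell in HOE1. Summed FPKM of the 12 ran from 2779 to 3143 in WT, 7644 to 8259 in HOE1 and 16557 to 19398 in HOE8. The largest part was the Rubisco small chain match Manes.01G011500 (2385 FPKM in WT, 6528 in HOE1, 7076 in HOE8). Next came the Rubisco activase match Manes.10G027600 (273, 869 and 6191). All 6 tested xylem matches of 8 rose in HOE8, and 3 fell and 0 rose in HOE1, with summed FPKM of 7.77 to 8.10 in WT, 4.58 to 5.27 in HOE1 and 12.8 to 14.4 in HOE8. Of 3 phloem matches, 1 fell and 2 rose in HOE8, and 1 fell in HOE1. Their summed FPKM was 123 to 132 in WT, 82.2 to 86.4 in HOE1 and 32.2 to 33.6 in HOE8. Most of that sum was the gene that fell, the SUC2 match Manes.18G099400 (119 FPKM in WT, 75.8 in HOE1, 23.4 in HOE8). Of 5 guard cell matches, all tested, the changes went both ways, with 3 rising and 1 falling in HOE8, and 3 rising and 2 falling in HOE1. Markers of suberised root cells were mostly low: 7 of 11 matches failed the count filter, and of the 4 tested, 2 rose and 1 fell in HOE8, and 2 rose and 2 fell in HOE1. The clock genes set HOE8 apart from both other groups. The LHY match Manes.01G239000 measured 5.33 ± 0.50 CPM in WT, with 8.62 ± 0.25 for HOE1 and 1252 ± 160.0 for HOE8, and the GIGANTEA match Manes.18G095000 measured 480.4 ± 6.9, 466 ± 5.2 and 1.05 ± 0.30. The part of these shifts in the values of the wax and cutin genes was not tested.

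Of 17 matches of cuticle regulators, 10 were tested. In HOE1, 3 rose and 3 fell, near the 31.7% and 32.7% of all genes. In HOE8, 5 rose and 1 fell, against 33.7% and 38.2% of all genes. MYB96 switches on wax genes in Arabidopsis. Its match Manes.06G092600 measured 73.2, 75.7 and 75 CPM in the WT libraries, 24.1, 25.9 and 26 in those of HOE1 and 42.2, 46.8 and 43 in those of HOE8, highest in WT and lowest in HOE1. It changed on the log2 scale by -1.56 ± 0.06, adjusted p = 4.5e-09 in HOE1 and -0.76 ± 0.06, adjusted p = 4.5e-07 in HOE8. The second MYB96 match, Manes.14G077700, rose from 28.3 ± 1.7 CPM to 43.3 ± 3.0 and 47.5 ± 4.6. MYB16, which promotes cuticle formation in the epidermis, had 1 match, Manes.01G093300, that measured 5.28, 6.66 and 5.34 CPM in the WT libraries, 8.9, 9.05 and 7.44 in those of HOE1 and 19.6, 17 and 17.4 in those of HOE8. It was highest in HOE8, with log2 fold changes of 1.64 ± 0.13, adjusted p = 4.1e-07 in HOE8 and 0.55 ± 0.13, adjusted p = 0.0032 in HOE1.

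Of 3 MYB30 matches, for an activator of very long-chain fatty acid genes, Manes.09G135700 rose in HOE1 (0.69) and HOE8 (1.28). Manes.01G090700 and Manes.02G046100 were called in neither line against WT. Manes.02G046100 was called lower in HOE8 than in HOE1, but that call ended with DESeq2 (-0.93, adjusted p = 0.072) and other settings. The MYB106 match Manes.02G047900 was called in neither line against WT (-0.22 and -0.15), and the other 2 MYB106 matches had 0 and 1 reads. The CFL1 matches, for a repressor of cuticle genes, were not called (Manes.08G103100, 0.31) or just called (Manes.09G185900, -0.41, adjusted p = 0.049) in HOE1. They rose by 0.41 and 0.63 in HOE8. The SHINE factors, activators of cutin and wax genes, were almost silent. The SHN3 match Manes.16G121500 measured 1.33 ± 0.37 CPM in WT and fell in HOE1 (-0.81, adjusted p = 0.022), 3 SHN1 matches had 0 reads, and the remaining SHN1 and SHN3 matches had 30 and 64 reads over all libraries. The calls of Manes.09G185900 and Manes.16G121500 in HOE1, and that of Manes.08G103100 in HOE8, ended under some settings (adjusted p up to 0.18, 0.14 and 0.08).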

How the data were processed

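Leaf RNA of 9 libraries was measured by RNA sequencing. Per gene and library, the deposited table held a read count, not normalized, and an FPKM value. The submitters' processing notes name HISAT2 2.0.4 and StringTie 1.3.0. The build, the counting tool and whether strand was used were not given in the sources used here, and coordinates are those of the table. The gene length implied by count, library total and deposited FPKM differed by less than 1% between libraries in 100% of 29647 genes with reads. The RefSeq gene table matched 0 of the identifiers, and no sequence was used.

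Counts were tested with edgeR 4.0.16 (R 4.3.3): filter at a minimum count of 10 (23434 of 33033 genes kept), TMM scaling, 1 quasi-likelihood fit over all 9 libraries with group as the only term, two-sided tests, and Benjamini-Hochberg adjustment over all genes tested. The SE is the log2 fold change over the square root of F. Groups came from the genotype labels. Replicate numbers did not pair the libraries. Alternatives were RLE and upper-quartile scaling, no filter, DESeq2 1.42.0, fits of 2 groups, a replicate block and leaving out each library.

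The members, lists and tests were chosen with earlier results of these data known. Named members were, per role, the one with the highest FPKM, those with the largest called change in each line at 1 CPM or more, the most expressed match of each of 14 core cuticle genes, and members of at least 5 CPM called in opposite directions. Pathway genes were named by largest change per role and line, with all tested regulators. The other genes named, and the division into wax, cutin and suberin matches, were chosen after their values were seen.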

Additional observations from a re-analysis of the deposited data

Results flagged for a closer look

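The members below had a mean of at least 5 CPM and were called in opposite directions in HOE1 and HOE8, and the test of HOE8 against HOE1 called the difference as well. The GPAT8 match Manes.01G255900 differed between the lines by 0.76 on the log2 scale (edgeR adjusted p = 1.2e-06). Its call in HOE1 ended without WT replicate 1, HOE1 replicate 2 or HOE1 replicate 3 (edgeR adjusted p = 0.11, 0.11 and 0.063). The GPAT2 match Manes.02G157300 differed by 2.94 (adjusted p = 6.2e-07). The GPAT6 match Manes.09G103500 differed by 2.30 (adjusted p = 2.1e-08), and the KCS11 match Manes.15G034900 by 3.09 (adjusted p = 5.4e-10). In each of these 4, all 3 HOE8 libraries lay above all 3 HOE1 libraries. Below 5 CPM, the CER1 match Manes.05G059700 (higher in HOE1, lower in HOE8, -1.97 between the lines) and the KCS2 match Manes.15G035000 (lower in HOE1, higher in HOE8, 2.36) were also called in opposite directions.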

How the results depend on the processing

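The counts of genes called, the 15 named members and the 24 named pathway genes were recomputed under 15 alternatives, and other genes given, such as other members and markers, were not recomputed singly. The alternatives were RLE and upper-quartile scaling, no low-count filter, DESeq2, fits of 2 groups, a replicate block and each of the 9 libraries left out. The counts of members and of pathway genes called, and those of all genes, stayed within 1.5 times the main count in each of them. With 1 library left out, 7 to 9 members were higher and 19 to 21 lower in HOE1, 15 to 16 higher and 15 to 16 lower in HOE8, and 16 to 17 higher and 9 to 11 lower in HOE8 than in HOE1. With the replicate number as a block, 8 members were higher and 20 lower in HOE1, 15 and 16 in HOE8, and 17 and 10 in HOE8 against HOE1. The numbers did not pair the libraries: same-numbered libraries had correlations of their deviations of -0.04 to 0.025, and 3 of 9 libraries correlated best with their own number. Of 1755 single-gene values, 1708 kept their direction and call, 38 kept the direction and lost the call, 8 gained one and 1 reversed. The value that reversed was the KCS1 match Manes.05G017600 in HOE8 against HOE1, which was -0.44 without HOE1 replicate 3, a library with 47 reads of it, and reached 0.52 without HOE1 replicate 2. No scaling moved the median log2 fold change of all genes by more than 0.1. DESeq2 gave no adjusted p for 31 genes in each comparison, which stayed out of its counts. Depth limits what can be said of the 14 untested genes and of the GPAT5 match Manes.07G118400, which had 6 reads over the HOE8 libraries.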
